A study of Mus musculus with 18 samples.

Results

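The 35 genes described here encode the regulators and machinery of DNA replication whose transcription is classically placed under E2F control: E2f1 and the E-type cyclins, origin recognition and licensing factors, helicase activators, polymerases and primase, the sliding clamp and its loaders, Okazaki fragment enzymes, deoxynucleotide synthesis enzymes and the chromatin factors Hells and Uhrf1. They were taken by symbol from a table of 23337 gene symbols, in which 35 of 35 were found, and 35 of 35 were among the 15482 genes kept by the low-count filter. RNA was sequenced from mammary glands of C57BL/6Jx129 mixed-background mice, either wild type (WT) or Cip2a-/-, with 3 libraries in each of 6 groups. Untreated glands of both genotypes came from mice that received no carcinogen. The 2-week glands were taken 2 weeks after the last of 6 weekly oral doses of 1 mg DMBA (7,12-dimethylbenz[a]anthracene, a carcinogen activated to DNA-damaging metabolites) in oil, begun at 12 to 14 weeks of age, again in both genotypes. The endpoint glands were tumour-free glands of equally dosed WT and Cip2a-/- mice that were killed because DMBA had induced a tumour somewhere in the body.

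Whole gland was collected, and the labels state that lymph nodes were excluded, so a gland with fewer cycling cells and a gland with less of these RNAs per cycling cell cannot be told apart. The labels describe no oil-only group, no age at the endpoint and no construction of the Cip2a allele. The labels number the libraries of a group but do not say that they came from separate litters or cages, and p-values measure the spread between these libraries. Total counts ranged from 16121743 to 24586404 per library, of which 5590 to 17866 were reads of the 35 genes. Cip2a itself (listed under its older symbol, C330027C09Rik) followed the genotype labels, with 86, 203 and 202 reads in the untreated, 2-week and endpoint WT groups against 2, 0 and 0 in the corresponding Cip2a-/- groups. Marker lists went against the labelled tissue in some libraries. The 12 luminal epithelium markers summed to 39.7 CPM (counts scaled to library size after TMM) in WT endpoint library 1 and to 675 CPM or more in the other 17, and that library held 8179 CPM of brown fat markers. The 8 lymph node stroma markers, of which Ccl21a was at 0 in all libraries, summed to 1055 CPM in the same library, 589 in Cip2a-/- endpoint library 1, 375 in Cip2a-/- untreated library 3 and 254 in Cip2a-/- 2-week library 2, against 129 CPM or less in the other 14. Cip2a-/- untreated library 3 (239 CPM of epidermis markers) and Cip2a-/- 2-week library 2 (316 CPM of B cell markers, against 4.59 and 61.0 in its group) also stood apart. Results are given without these and WT endpoint library 1, the 3 libraries that stood apart, where they differ. The 3 were picked by hand, with no fixed threshold. Cip2a-/- endpoint library 1 was kept despite its lymph node stroma sum. Also kept were WT untreated library 1 (651 CPM of B cell markers) and Cip2a-/- endpoint library 3 (18390 CPM of erythroid markers).

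Replication begins when the origin recognition complex, Cdc6 and Cdt1 load the Mcm2 to Mcm7 helicase onto DNA in G1. Cyclin E and Cdk2 activity helps to free E2F factors from the retinoblastoma (pocket protein) family. Once the helicase is loaded, Mcm10, Cdc45 and the GINS complex activate it, and polymerases alpha, delta and epsilon copy the strands on the Pcna clamp. E2F factors activate most of these genes in cycling cells and pocket protein repressor complexes silence them in resting cells, so their RNA is widely used as a mark of proliferation. In the adult gland outside pregnancy few epithelial cells cycle, and immune and stromal cells of the fat pad contribute dividing cells as well. CIP2A inhibits the phosphatase PP2A and is itself expressed in proliferating cells.

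The genes were listed as classical E2F targets, not by a search of these promoters. The motif counts therefore describe the list and are no independent test of it. An E2F motif was found in a part of the genes. RefSeq promoter windows (GRCm38.p6, 250 bases before to 50 after the start) were held for 29 of the 35 genes. Ccne2, Gins1, Gins2, Mcm4, Pole and Dscc1 were not among them. An E2F core, searched on both strands as TTTCCCGC, TTTGGCGC, TTTCGCGC or TTTGCCGC, was present in 14 of 29 genes, against 2.6% of 27025 genes. By window, it was in 14 of their 34, against 2.26% of 32851 promoter windows. The 14 were Orc1, Cdc6, Cdt1, Mcm3, Mcm5, Mcm6, Mcm7, Pola1, Pole2, Pold1, Rfc3, Lig1, Hells and Uhrf1, and 12 of their 20 matches, in 10 genes, began within 100 bases of the start. A CCAAT box, the letters bound by NF-Y, occurred in 16 of 29 against 41.1% of genes, and TTTGAA, the core of the CHR element typical of mitotic genes, in 3 of 29 against 20.2% of genes. These are letter matches, not measured binding, and E2f1, Orc6, Pcna, Rrm2, Tk1 and Tyms were among the 15 genes with no E2F core in the window. The following 30-base windows are examples from genes with a match. They are written in the direction of transcription with the match in capitals. Rfc4 and Rfc5, which also lead comparisons below, had no match, and Pole, Dscc1 and Gins1 had no window. Positions count from the transcription start of the promoter window, with negative values upstream. For Hells, Uhrf1 and Orc1 this start lies inside the RefSeq span of the gene. The Uhrf1 match is in a window at an internal start (56304063 to 56304362). Its window at the start of the span (56303087 to 56303386) had no match.
Hells, from -62, chr19:38930917-38930946, + strand, in an exon of the wider GENCODE gene model: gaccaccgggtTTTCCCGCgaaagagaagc
Uhrf1, from -185, chr17:56304117-56304146, + strand, intronic in that model: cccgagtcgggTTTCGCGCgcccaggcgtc
Orc1, from -27, chr4:108579416-108579445, + strand, exonic in that model: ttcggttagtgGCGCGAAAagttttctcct
Mcm5, from -153, chr8:75109345-75109374, + strand, outside the gene: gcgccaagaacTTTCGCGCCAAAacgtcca
Pola1, from -138, chrX:93632275-93632304, - strand, outside the gene: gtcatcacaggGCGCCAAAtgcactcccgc
In Hells and Uhrf1 the match is on the printed strand, and in Orc1 and Pola1 it is on the other strand. Exon, intron and outside refer to GENCODE M21 gene models, whereas the chromosome spans given for genes in the text are RefSeq ones. The Pola1 window, outside the GENCODE model, lies within its RefSeq span (93304766 to 93632387). The Mcm5 window holds 2 overlapping matches, TTTCGCGC on the printed strand from -153 and TTTGGCGC on the other strand from -149, and the capitals cover both. Mcm6 held 3 matches, of which the upstream pair overlap on opposite strands. Its whole 250-base upstream window (chr1:128359706-128359955, - strand, outside the gene) shows this arrangement, with the matched bases in capitals.
Mcm6 upstream: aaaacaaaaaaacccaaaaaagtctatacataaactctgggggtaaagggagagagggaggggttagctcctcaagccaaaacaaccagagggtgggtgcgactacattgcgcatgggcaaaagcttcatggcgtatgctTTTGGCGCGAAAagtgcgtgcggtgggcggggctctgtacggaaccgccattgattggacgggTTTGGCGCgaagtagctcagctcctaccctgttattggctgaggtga

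Levels between genes were compared per length, as RPKM (reads scaled to merged exon length and to library size), averaged over the 18 libraries. Pcna, the sliding clamp (chromosome 2, 132249286 to 132253180), was the most abundant at 16.7 RPKM, with a range of 10.8 to 25.9 across libraries. Mcm7 (chromosome 5, 138164583 to 138172111) followed at 12.3 RPKM and a range of 7.28 to 19.5. The scarcest were Orc1 (chromosome 4, 108575705 to 108616030), the origin complex subunit that is turned over in each cell cycle, at 0.252 RPKM, and Dscc1 (chromosome 15, 55076101 to 55090491), a subunit of an alternative clamp loader, at 0.193 RPKM. The genes also differed in how much they varied. Between the lowest and the highest library, Orc6 spanned 1.51-fold in CPM, Mcm4 2.06-fold and Pcna 2.40-fold, while Rrm2 spanned 16.5-fold, Tk1 19.2-fold, Uhrf1 21.1-fold and Orc1, which rests on few reads, 52.9-fold. Fen1 and Gins2 share 84.2% and 67.3% of their exon bases with genes on the other strand (Gm10143 and Tmem258 for Fen1, Gse1 for Gins2), and Ccne2, Rfc4, Mcm7, Orc1 and Rfc5 share 10.7% to 17.4%. The labels do not give the strand setting of the counting, so counts of these genes are uncertain, as are those of Pcna and Tyms, which have named pseudogenes.

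**Figure D1:**
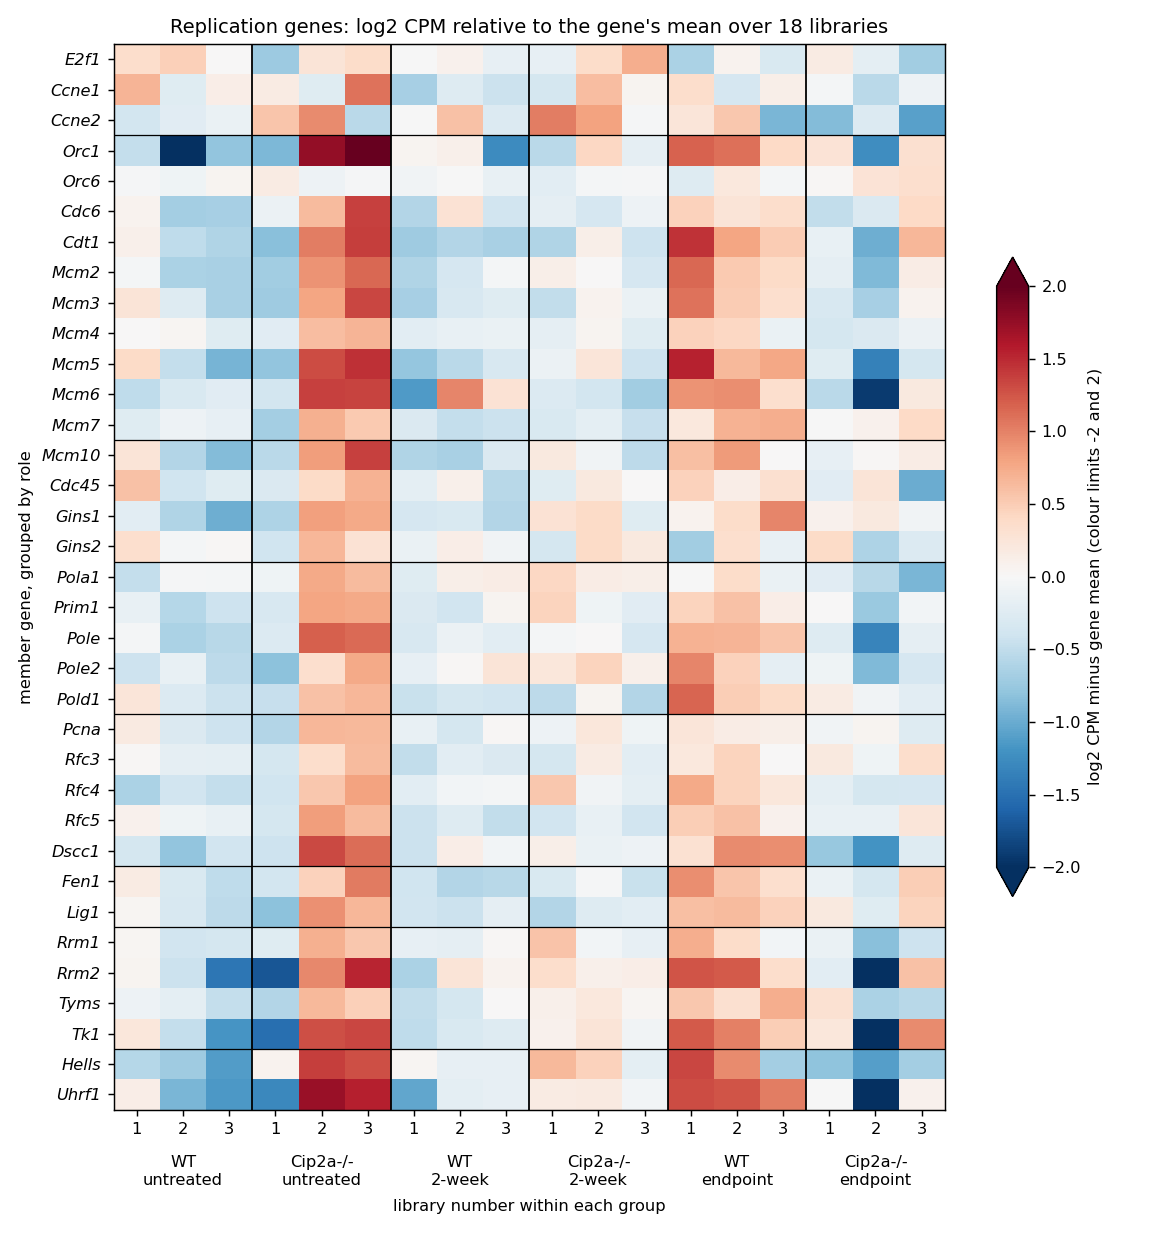
Log2 CPM of each of the 35 genes (rows, grouped by role, with the gene's mean over 18 libraries subtracted) in each library (columns, 3 per group). Red marks values above and blue values below the gene's mean. Cip2a-/- untreated libraries 2 and 3 and the WT endpoint libraries are red in most rows, Cip2a-/- endpoint library 2 is the bluest column, and Orc6 is nearly white throughout.

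In untreated glands, most replication genes had higher mean values in Cip2a-/- than in WT, and the difference lay in 2 of the 3 Cip2a-/- glands. Cip2a-/- libraries 2 and 3 each exceeded every untreated WT library for 31 of 35 genes, whereas library 1 did so for 3 genes (Ccne2, Orc6 and Hells) and was below every WT library for 16. Libraries 2 and 3 held the highest value of all 18 libraries for 11 and 12 genes, and library 1 the lowest value of its group for 32. Summed over the 35 genes, the 3 WT glands stood at 486, 390.3 and 359 CPM and the Cip2a-/- glands at 334, 823 and 868 CPM.

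The licensing genes, which load the helicase, showed this division of the Cip2a-/- group. Mcm6, a helicase subunit (chromosome 1, 128331575 to 128359705), stood at 17.4, 19.9 and 21.0 CPM in the WT libraries and at 19.1, 63.7 and 62.7 CPM in the Cip2a-/- libraries. Mcm5 (chromosome 8, 75109468 to 75128439) stood at 23.6, 13.0 and 9.41 CPM in WT and at 10.4, 44.8 and 49.9 CPM in Cip2a-/-. In both genes library 1 of the mutant group lay at the WT level and libraries 2 and 3 lay above all WT glands. The log2 fold change was 1.32 ± 0.55 (SE) for Mcm6 and 1.19 ± 0.50 for Mcm5. Orc1 had 0.434, 0.0558 and 0.332 CPM in WT and 0.299, 2.42 and 2.95 CPM in Cip2a-/- glands (log2 fold change 2.74 ± 0.83). Orc6, the other origin complex subunit in the group, was level, with 20.6, 19.8 and 21.8 CPM against 23.6, 19.6 and 20.7 CPM (log2 fold change 0.04 ± 0.15). At an unadjusted p under 0.05, 8 of the 10 licensing genes were higher, Orc6 and Mcm7 being the exceptions.

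Downstream of licensing, Pole, the catalytic subunit of the leading-strand polymerase (chromosome 5, 110286319 to 110337468), stood at 7.33, 4.80 and 5.10 CPM in WT and 6.22, 17.3 and 16.6 CPM in Cip2a-/- glands (log2 fold change 1.22 ± 0.36). Hells, a chromatin remodeller that acts with DNA methylation (chromosome 19, 38930262 to 38970470), was the 1 gene whose groups did not overlap, at 1.91, 1.73 and 1.27 CPM in WT and 3.05, 7.70 and 7.18 CPM in Cip2a-/- glands. Higher, non-overlapping values of this kind were found for 5.94% of all genes tested. The group means of Hells were 1.64 ± 0.327 and 5.98 ± 2.55 CPM (SD, n = 3), and its log2 fold change of 1.86 ± 0.47 had the smallest unadjusted p of the 35 genes. Its partner in maintenance methylation, Uhrf1 (chromosome 17, 56303337 to 56323486), which recognises hemimethylated DNA, followed the pattern of the Mcm genes, with 13.1, 6.31 and 5.32 CPM in WT and 4.84, 39.7 and 35.4 CPM in Cip2a-/-. Of the upstream regulators, E2f1 stood at 16.1, 17.6 and 12.6 CPM in WT and 7.59, 15.1 and 16.3 CPM in Cip2a-/- (log2 fold change -0.25 ± 0.32), the 1 negative value among the 35. Neither Ccne1 nor Ccne2, the E-type cyclins, had an unadjusted p under 0.05.

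The edgeR quasi-likelihood test with Benjamini-Hochberg adjustment called 0 of 35 genes, with 0% of all 15482 genes called, and the smallest adjusted p among the 35 was 1.00. At an unadjusted p under 0.05, 18 of 35 were higher and 0 lower, against 1.72% of all genes higher. DESeq2 and limma voom also called 0, with 19 and 9 genes at an unadjusted p under 0.05. The median log2 fold change over the 35 genes was 0.71, with 34 positive, beside 0.04 over all genes tested. Without Cip2a-/- library 1 the median was 1.01 with 29 genes at an unadjusted p under 0.05. Without Cip2a-/- library 2 or library 3, 6 genes were left in each case, and without WT library 2 or library 3, 8 in each. Without the 3 libraries that stood apart, 4 were left and the median was 0.58.

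Markers of other cells also differed between these glands. The 11 B cell markers summed to 651, 61.5 and 20.6 CPM in the WT libraries and to 330, 26.6 and 971 CPM in the Cip2a-/- libraries, and the 10 T cell markers found in the table to 221, 51.6 and 40.9 against 107, 42.3 and 456 CPM. No B or T cell marker was at 0 in any of the 6 libraries. Lymph node stroma markers summed to 86.5, 13.8 and 7.59 CPM in WT and 129, 11 and 375 CPM in Cip2a-/- libraries, and the 5 brown fat markers to 245, 275 and 87.6 against 857, 658 and 103 CPM. The median log2 fold change was 0.94 for B cell markers (11 of 11 positive), 0.88 for T cell markers (9 of 10), 2.28 for lymph node stroma markers (7 of 7 tested) and 1.86 for brown fat markers (5 of 5). Epidermis markers had a median of 4.33 (4 of 4 tested positive), with 239 CPM in Cip2a-/- library 3 and 6.64 CPM or less in the other untreated libraries. Going the other way were white adipocyte (7 of 7 negative, -0.42), endothelium (5 of 5, -0.15) and muscle markers (5 of 6, -0.85). Within the Cip2a-/- group, replication genes were lowest in library 1, B cell, T cell and lymph node stroma markers in library 2, and brown fat markers in library 3. Library 3 was the highest for replication genes and for B cell, T cell and lymph node stroma markers, and library 1 for brown fat markers. The part of these markers in the difference was not tested.

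**Figure D2:**
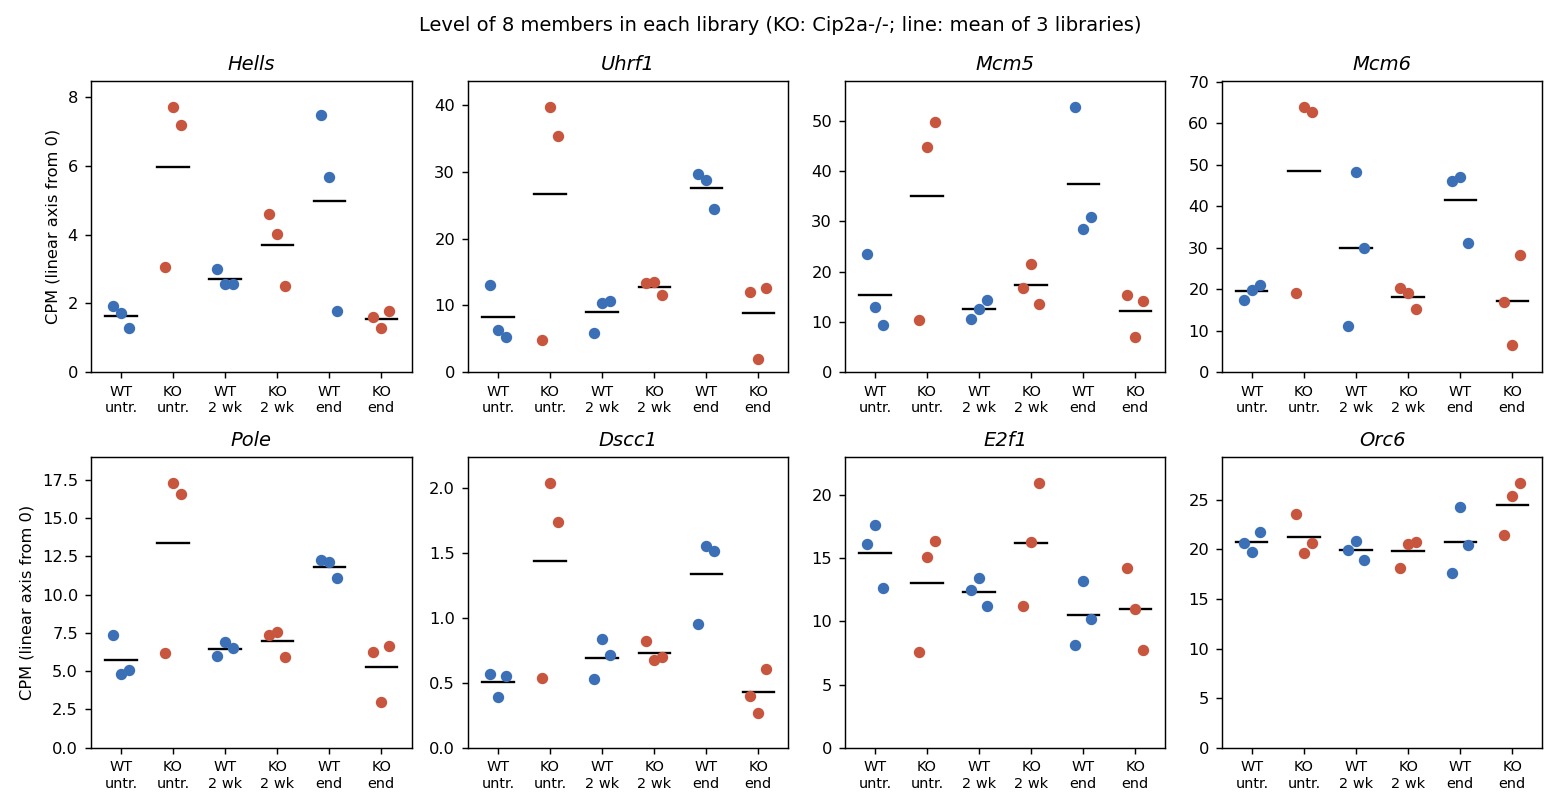
CPM (linear axes from 0) of 8 of the genes in each of the 18 libraries, WT in blue and Cip2a-/- (KO) in red, with the mean of 3 libraries as a line. Hells, Uhrf1, Mcm5, Mcm6, Pole and Dscc1 have 2 high untreated Cip2a-/- libraries and higher means in WT than in Cip2a-/- glands at the endpoint, while E2f1 and Orc6 show neither feature.

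In WT mice, tumour-free glands at the endpoint had higher values of most replication genes than untreated glands, and here the libraries of the group were closer together. WT endpoint libraries 1 and 2 each exceeded every untreated WT library for 30 of 35 genes and library 3 for 21. For 21 genes all 3 endpoint libraries lay above all 3 untreated ones, against 8.49% of all genes tested.

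Rfc4, a clamp loader subunit (chromosome 16, 23113948 to 23127730), stood at 5.12, 6.14 and 5.70 CPM untreated and at 13.6, 10.99 and 9.42 CPM at the endpoint, without overlap, a log2 fold change of 1.00 ± 0.29 (adjusted p = 0.221, edgeR). Gins1, a subunit of the GINS helicase activator (chromosome 2, 150909556 to 150931280), stood at 3.25, 2.46 and 1.88 CPM untreated and 3.99, 4.91 and 7.58 CPM at the endpoint (log2 fold change 1.11 ± 0.37, adjusted p = 0.282 by edgeR). Hells was at 7.48, 5.69 and 1.77 CPM at the endpoint, so that library 3 lay within its untreated range (log2 fold change 1.60 ± 0.47, adjusted p = 0.229 by edgeR). Among the others, Uhrf1 had 29.7, 28.7 and 24.5 CPM and Mcm5 52.7, 28.5 and 30.9 CPM at the endpoint, all above the untreated libraries. The E-type cyclins and E2f1 did not share this: E2f1 stood at 8.11, 13.2 and 10.2 CPM at the endpoint, a log2 fold change of -0.56 ± 0.32.

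EdgeR called 0 of 35 genes, with 0.0323% of all genes called, and 18 of 35 were higher at an unadjusted p under 0.05, against 6.58% of all genes. DESeq2 called 2 (Rfc4 and Hells, with 1.98% of all genes) and voom 0. By role, the 18 comprised 5 of 10 licensing genes, 4 of 5 polymerase and primase genes (Prim1, Pole, Pole2 and Pold1), 2 of 4 nucleotide supply genes (Rrm1 and Tyms), both Okazaki fragment enzymes (Fen1 and Lig1), Hells, Uhrf1, Rfc4, Dscc1 and Gins1, and none of the E2F and cyclin E genes. The median log2 fold change was 0.82, with 32 of 35 positive, beside 0.08 over all genes. Leaving out single libraries kept the median between 0.70 and 0.99, but the number at an unadjusted p under 0.05 was 10 without endpoint library 1, 9 without untreated library 2 and 8 without untreated library 3. Without the 3 libraries that stood apart it was 7, with a median of 0.75.

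Cell type markers differed greatly within the WT endpoint group. B cell markers summed to 2472, 6.23 and 451 CPM, T cell markers to 773, 22.6 and 36.3 CPM, luminal markers to 39.7, 3551 and 772 CPM and muscle markers to 33991, 17.4 and 1934 CPM. Lymph node stroma markers summed to 1055, 23.8 and 31.5 CPM and brown fat markers to 8179, 29.5 and 188 CPM, and the 35 replication genes to 767, 691 and 593 CPM. Against untreated WT glands the median log2 fold change was 1.95 for B cell markers (11 of 11 positive), 1.61 for T cell markers (10 of 10), 3.15 for lymph node stroma markers (7 of 7), 3.20 for brown fat markers (5 of 5) and 0.14 for muscle markers (6 of 6). White adipocyte markers went the other way, lower for 6 of 7 (-0.68). The part of these markers in the difference was not tested.

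In Cip2a-/- mice the same comparison gave values of the opposite sign. The Cip2a-/- endpoint glands had summed levels of 445, 352 and 494 CPM, so that the endpoint group lay within or below the range of WT untreated and 2-week glands, apart from the highest library, and library 2 had the lowest value of all 18 libraries for 13 genes. Hells stood at 1.60, 1.29 and 1.77 CPM at the endpoint and thus below all 3 untreated Cip2a-/- libraries (log2 fold change -1.94 ± 0.47). Pola1, the catalytic subunit of the primer-extending polymerase (chromosome X, 93304766 to 93632387), stood at 6.04, 11 and 10.02 CPM untreated and at 5.51, 4.35 and 3.37 CPM at the endpoint (log2 fold change -1.03 ± 0.27). Pole stood at 6.27, 2.96 and 6.64 CPM at the endpoint, overlapping the untreated library 1 (log2 fold change -1.34 ± 0.36). The adjusted p was 0.263 for each of the 3 by edgeR. Hells and Pola1 were the 2 genes whose groups did not overlap, and 9.42% of all genes tested had lower, non-overlapping values.

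EdgeR called 0 of 35 (0% of all genes), DESeq2 called 3 (Hells, Pola1 and Pole, with 1.80% of all genes) and voom 0. At an unadjusted p under 0.05, 15 of 35 were lower, against 7% of all genes, and 34 of 35 had negative values, with a median of -0.72 beside -0.04 over all genes. This comparison uses the untreated Cip2a-/- group and depends on its 2 high libraries: the median was -0.40 without untreated library 3 (8 genes at an unadjusted p under 0.05) and -1.01 without untreated library 1 (27 genes). It was -0.62 with 7 genes without untreated library 2, and -0.53 with 9 genes without endpoint library 2. Fitted values were also lower at the endpoint for 11 of 11 B cell markers, with a median log2 fold change of -3.82. The same held for 10 of 10 T cell (-3.20), 5 of 7 lymph node stroma (-3.96) and 5 of 5 brown fat markers (-1.50). Muscle markers were lower for 6 of 6 (-5.79). Going the other way were 4 of 4 erythroid (4.31), 11 of 12 luminal (1.17) and 7 of 7 basal epithelium markers (0.73). Endothelium markers were higher for 5 of 5 (0.53). The part of these markers in the difference was not tested.

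When the endpoint glands were set against each other, 32 of 35 replication genes had lower fitted values in Cip2a-/- than in WT, in a comparison that does not involve the untreated glands. The 3 WT glands stood at 767, 691 and 593 CPM in sum and the 3 Cip2a-/- glands at 445, 352 and 494 CPM, without overlap. For 16 genes every Cip2a-/- library was below every WT library, against 3.02% of all genes tested. These were Orc1, Mcm2, Mcm3, Mcm5, Mcm6, Pola1, Prim1, Pole, Pold1, Pcna, Rfc4, Dscc1, Lig1, Rrm1, Tyms and Uhrf1, which reach from licensing through DNA synthesis to maintenance methylation.

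Dscc1 had 0.950, 1.55 and 1.52 CPM in WT and 0.401, 0.269 and 0.609 CPM in Cip2a-/- endpoint glands, with group means of 1.34 ± 0.336 and 0.426 ± 0.171 CPM (SD, n = 3) and a log2 fold change of -1.64 ± 0.48. Mcm5 had 15.2, 7.04 and 14.2 CPM in the Cip2a-/- glands, below the WT minimum of 28.5 CPM (log2 fold change -1.62 ± 0.50). Pole means were 11.8 ± 0.644 CPM in WT and 5.29 ± 2.03 CPM in Cip2a-/- (SD, n = 3), a log2 fold change of -1.16 ± 0.36. Hells had the smallest unadjusted p, with a log2 fold change of -1.68 ± 0.47, but WT library 3 and Cip2a-/- library 3 both stood at 1.77 CPM. Uhrf1 was at 11.9, 1.88 and 12.7 CPM in Cip2a-/- glands against 24.5 CPM or more in WT. Pcna, the most abundant of the group, was at 46.0, 43.2 and 42.6 CPM in WT and 37.2, 40.8 and 32.7 CPM in Cip2a-/-, a separation without overlap but with a log2 fold change of only -0.25 ± 0.26. Among the exceptions, Orc6 was at 17.6, 24.3 and 20.4 CPM in WT and 21.4, 25.4 and 26.7 CPM in Cip2a-/- glands, and E2f1 and Gins2 had log2 fold changes of 0.06 ± 0.32 and 0.01 ± 0.34.

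No gene of the 35 passed: edgeR called 0 (0.00646% of all genes, smallest adjusted p among the 35 of 0.458), and DESeq2 and voom also called 0, with 15 and 17 genes at an unadjusted p under 0.05. At an unadjusted p under 0.05, 15 were lower and 0 higher, against 6.67% of all genes lower. They comprised 5 of 6 Mcm helicase subunits (Mcm2 to Mcm6), 4 of 5 polymerase and primase genes (Pola1, Pole, Pole2 and Pold1), Rfc4, Dscc1, Rrm1, Tyms, Hells and Uhrf1. The median was -0.76, beside -0.02 over all genes, and leaving out single libraries moved it between -0.86 and -0.63. The number at an unadjusted p under 0.05 was 6 without Cip2a-/- library 2 and 9 without WT library 1, and 4 without the 3 libraries that stood apart, where the median was -0.61.

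Fitted values of other cell type markers also differed between the genotypes at the endpoint, although their library sums overlapped. In WT, the highest sums of B cell, T cell, lymph node stroma, brown fat and muscle markers were all in library 1, which stood apart. B cell markers summed to 6.23 to 2472 CPM in WT and 7.42 to 61.5 CPM in Cip2a-/- glands, T cell markers to 22.6 to 773 and 19.4 to 29.8 CPM, and luminal markers to 39.7 to 3551 and 1860 to 4187 CPM. None of the 11 B cell and 10 T cell markers was at 0 in these 6 libraries. The erythroid markers reached 18390 CPM in Cip2a-/- library 3 against 303 to 2782 CPM in the other 5. Lymph node stroma markers summed to 23.8 to 1055 CPM in WT and 9.30 to 589 CPM in Cip2a-/-, brown fat markers to 29.5 to 8179 and 71.4 to 206 CPM, and muscle markers to 17.4 to 33991 and 14.1 to 269.9 CPM. Fitted values were lower in Cip2a-/- for 11 of 11 B cell markers (median log2 fold change -5.12, 10 at an unadjusted p under 0.05), 10 of 10 T cell markers (-3.95, 8), 6 of 7 lymph node stroma markers (-5.36, 4), 5 of 5 brown fat markers (-2.82, 3) and 6 of 6 muscle markers (-6.92, 3). Luminal markers were higher for 11 of 12 (median 1.03). The part of these markers in the difference was not tested.

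**Figure D3:**
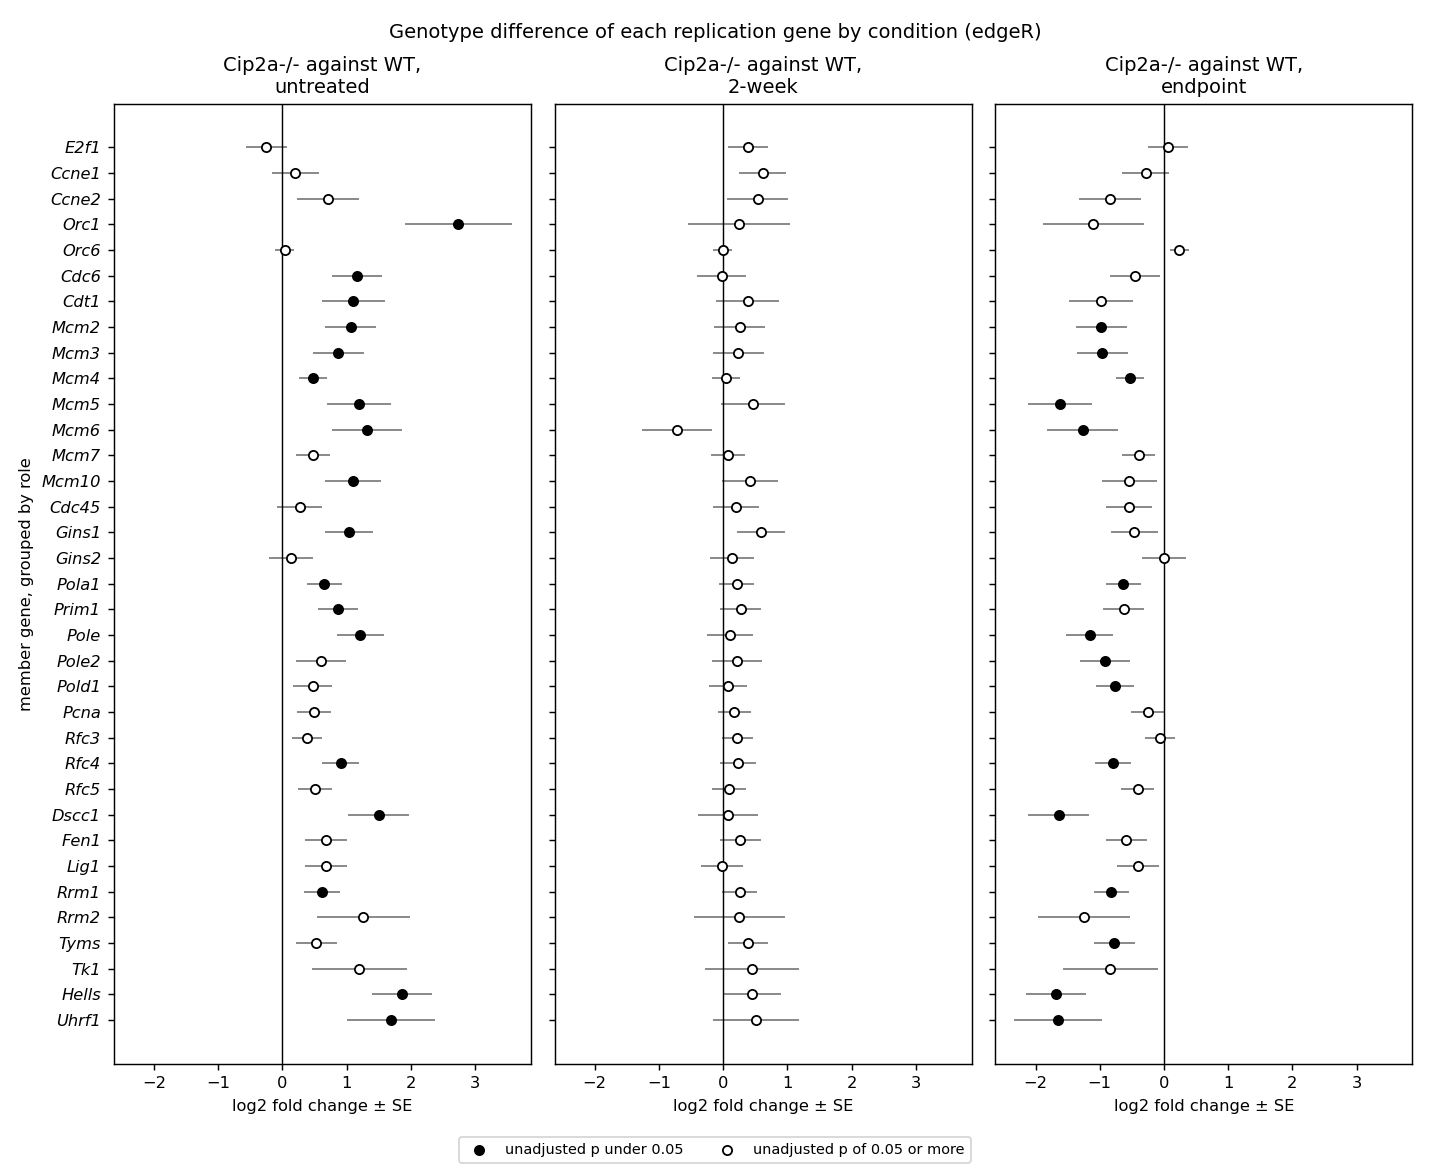
Log2 fold change of Cip2a-/- against WT (edgeR, ± SE) for each of the 35 genes in untreated, 2-week and endpoint glands. Filled points have an unadjusted p under 0.05, and none passed after adjustment. The values lie mostly right of 0 in untreated glands (median 0.71), near 0 at 2 weeks (median 0.23) and left of 0 at the endpoint (median -0.76).

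The opposite signs of the genotype difference in untreated and endpoint glands were tested as an interaction, which asks whether the endpoint effect differs between the genotypes. For 33 of 35 genes the term was negative, with a median of -1.51 on the log2 scale beside -0.06 over all genes, and 27 had an unadjusted p under 0.05 in that direction, against 6.79% of all genes. The smallest unadjusted p belonged to Hells at -3.54 ± 0.66 (unadjusted p = 9.55e-05, edgeR), followed by Dscc1 at -3.14 ± 0.67 and Pole at -2.37 ± 0.51. EdgeR still called 0 of 35 and 0% of all genes (adjusted p = 0.490 for these 3 genes). DESeq2 called 5 (Dscc1, Hells, Mcm5, Pole and Rfc4, with 0.233% of all genes), and voom called 0 with 24 genes at an unadjusted p under 0.05. All 5 polymerase and primase genes and 9 of 10 licensing genes were among the 27, while Orc6 (0.20 ± 0.21) and E2f1 (0.31 ± 0.45) had the 2 positive terms. Leaving out single libraries kept the median between -1.78 and -1.21 and the number at an unadjusted p under 0.05 between 20 and 29. Without the 3 libraries that stood apart, 16 genes and a median of -1.15 were left. The interaction was also negative for 11 of 11 B cell markers (median -5.64) and 10 of 10 T cell markers (-4.85). The same held for 7 of 7 lymph node stroma (-6.46), 5 of 5 brown fat (-4.76) and 6 of 6 muscle markers (-5.80). It was positive for 11 of 12 luminal (0.99), 4 of 4 erythroid (1.96) and 5 of 5 endothelium markers (0.65). The part of these markers in the interaction was not tested.

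Replication genes in glands taken 2 weeks after the last dose showed little of either difference. In WT, the 35 genes had a median log2 fold change against untreated glands of -0.01, beside -0.02 over all genes, with 17 positive and 18 negative, and its sign depended on the libraries used (-0.12 without untreated library 3, 0.18 without untreated library 1). Ccne1, which activates Cdk2 at the start of S phase (chromosome 7, 38097984 to 38107490), had the smallest unadjusted p: 9.80, 5.14 and 6.65 CPM untreated and 3.80, 5.07 and 4.46 CPM at 2 weeks, a log2 fold change of -0.70 ± 0.37. Hells (2.99, 2.56 and 2.57 CPM at 2 weeks, log2 fold change 0.72 ± 0.46) and Rfc4 (6.89, 7.72 and 7.82 CPM, 0.40 ± 0.28) lay above their untreated libraries without overlap, and Ccne1, Mcm7, Rfc3 and Rfc5 below theirs. Of all genes tested, 14.2% lay wholly above and 11.6% wholly below. No gene of the 35 was called by edgeR (0% of all genes), DESeq2 or voom, and 0 of 35 had an unadjusted p under 0.05 by each of them, against 4.23% of all genes by edgeR. Cell type markers did differ in this comparison. B cell markers were lower at 2 weeks for 11 of 11 (median log2 fold change -5.19), T cell for 10 of 10 (-1.80) and muscle markers for 6 of 6 (-2.15). Luminal markers were higher for 12 of 12 (1.13) and brown fat markers for 4 of 5 (0.49). Whether these markers had a part was not tested.

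Between the genotypes at 2 weeks the values were also close. The summed levels were 359.9, 422 and 418 CPM in WT and 443, 487 and 409 CPM in Cip2a-/- glands, which overlap. The median log2 fold change was 0.23, beside 0.04 over all genes, with 31 of 35 positive, and it was 0.13 without Cip2a-/- library 2. Ccne1 (4.73, 9.40 and 6.31 CPM in Cip2a-/-) had a log2 fold change of 0.62 ± 0.37, and Gins1, at 2.99, 3.07 and 2.48 CPM in WT and 4.66, 4.995 and 3.20 CPM in Cip2a-/-, had 0.59 ± 0.37. Gins1, Tyms, Tk1 and Uhrf1 were higher in Cip2a-/- without overlap, as were 6.76% of all genes tested. Mcm6 had the most negative value, -0.71 ± 0.54, from WT libraries at 11.1, 48.3 and 30.0 CPM and Cip2a-/- libraries at 20.3, 19.1 and 15.2 CPM, which overlap. With edgeR 0 of 35 were called (0.00646% of all genes), as with DESeq2 and voom, and 0 of 35 had an unadjusted p under 0.05, against 2.44% of all genes in either direction. B cell markers were higher in Cip2a-/- for 11 of 11 (median log2 fold change 4.21), T cell for 10 of 10 (1.75) and lymph node stroma markers for 6 of 7 (3.16). Luminal markers were lower for 11 of 12 (-0.69) and brown fat markers for 5 of 5 (-0.58). Whether these markers had a part was not tested.

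Within Cip2a-/- glands, the values of the step from untreated to 2 weeks moved with the untreated library left out. The median was -0.62, beside 0.00 over all genes, with 32 of 35 negative, but it was -0.37 without untreated library 3 and -0.94 without untreated library 1. Rfc5, a clamp loader subunit (chromosome 5, 117379145 to 117389023), stood at 8.85, 20.2 and 17.5 CPM untreated and 8.64, 10.2 and 8.63 CPM at 2 weeks (log2 fold change -0.76 ± 0.26), so that untreated library 1 overlapped the 2-week group. Pole (7.33, 7.54 and 5.94 CPM at 2 weeks) had -0.94 ± 0.36 and Mcm6 -1.41 ± 0.55. Of the 35, edgeR called 0 (0.0129% of all genes), as did DESeq2 and voom, which had 14 and 4 genes at an unadjusted p under 0.05. At an unadjusted p under 0.05, 11 of 35 were lower, against 2.47% of all genes, and 1 was left without untreated library 2 or library 3, 3 without 2-week library 1 or library 3, and 22 without untreated library 1. Without the 3 libraries that stood apart, 2 were left, with a median of -0.44. B cell markers were lower at 2 weeks for 11 of 11 (median log2 fold change -1.87), T cell for 10 of 10 (-1.03) and brown fat markers for 4 of 5 (-2.44). Muscle markers were higher for 6 of 6 (1.67) and luminal markers for 8 of 12 (0.73). Whether these markers had a part was not tested. The interaction of genotype with the 2-week step was negative for 33 of 35, with a median of -0.46 beside -0.01 over all genes. It was smallest in p for Mcm6 (-2.03 ± 0.77), Pole (-1.11 ± 0.51) and Orc1 (-2.49 ± 1.14), with 6 genes at an unadjusted p under 0.05 against 1.63% of all genes, and 0 of 35 were called by edgeR (0% of all genes), DESeq2 or voom, the latter pair having 5 and 0 genes at an unadjusted p under 0.05. The median was -0.76 without Cip2a-/- untreated library 1 and -0.31 without Cip2a-/- untreated library 3. The number of genes was 15 without Cip2a-/- untreated library 1, 0 without WT 2-week library 2, and 1 to 4 when any other library of these 4 groups was left out. This interaction was positive for 11 of 11 B cell (median 3.20), 8 of 10 T cell (0.61) and 6 of 6 muscle markers (3.88). It was negative for 12 of 12 luminal (-0.79) and 5 of 5 brown fat markers (-2.93). Whether these markers had a part was not tested.

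The later step, from 2 weeks to the endpoint, avoids the untreated glands. In WT glands the median was 0.81, beside 0.08 over all genes, with 32 of 35 positive. Pold1, the catalytic subunit of the lagging-strand polymerase (chromosome 7, 44532744 to 44548815), stood at 17.7, 18.9 and 18.5 CPM at 2 weeks and 54.5, 33.9 and 31.5 CPM at the endpoint (log2 fold change 1.12 ± 0.30, adjusted p = 0.0808 by edgeR). Mcm7 stood at 42.5, 37.3 and 38.4 CPM and then 60.0, 84.2 and 86.3 CPM (0.96 ± 0.26, adjusted p = 0.0815 by edgeR), and Fen1, the flap endonuclease of Okazaki fragments (chromosome 19, 10199132 to 10204393), at 10.2, 9.02 and 9.13 and then 25.9, 20.01 and 17.1 CPM (1.15 ± 0.32, adjusted p = 0.0863 by edgeR). In these 3 and 20 other genes of the 35 every endpoint library was above every 2-week library, against 12.5% of all genes tested. Here 0 of 35 were called by edgeR, against 0.31% of all genes, and 15 were higher at an unadjusted p under 0.05, against 12.8% of all genes. DESeq2 called 6 (Cdt1, Fen1, Mcm5, Mcm7, Pold1 and Rfc5) with 10.1% of all genes called, and voom called 0, with 15 genes at an unadjusted p under 0.05. Without WT endpoint library 2, edgeR called Pold1 (adjusted p = 0.0415), in a fit whose share of all genes called is not given here. Without WT 2-week library 1 the number at an unadjusted p under 0.05 was 8. Without the 3 libraries that stood apart it was 9. B cell markers were also higher at the endpoint for 11 of 11 (median log2 fold change 7.07, 11 at an unadjusted p under 0.05). The same held for 10 of 10 T cell (3.28, 5), 7 of 7 lymph node stroma (6.33, 6) and 5 of 5 brown fat markers (2.21, 1). Muscle (6 of 6, 2.26) and erythroid markers (4 of 4, 3.44) were also higher. Luminal (11 of 12) and white adipocyte markers (5 of 7) were lower. The part of these markers in the difference was not tested.

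In Cip2a-/- glands this later step was close to 0 for most genes, with a median of -0.19 beside -0.04 over all genes, 11 positive and 24 negative. Ccne2 (chromosome 4, 11190433 to 11204779) had the smallest unadjusted p, at 3.43, 2.96 and 1.62 CPM at 2 weeks and 0.852, 1.34 and 0.719 CPM at the endpoint (log2 fold change -1.45 ± 0.49, adjusted p = 0.116 by edgeR). Pola1 (8.64, 7.15 and 7.005 CPM at 2 weeks, log2 fold change -0.78 ± 0.27, adjusted p = 0.125 by edgeR) and Hells (4.59, 4.02 and 2.51 CPM at 2 weeks, -1.25 ± 0.46, adjusted p = 0.139 by edgeR) followed. In these 3 genes, Pole2 and Dscc1 the endpoint libraries were all below the 2-week libraries, against 11.4% of all genes tested, and in Orc6, Mcm7 and Rfc5 they were all above, against 12.5%. EdgeR called 0 of 35 with 0% of all genes, 3 were lower at an unadjusted p under 0.05, against 11.9% of all genes, and DESeq2 called 2 (Ccne2 and Pola1) with 11.6% of all genes called, while voom called 0. The median was -0.06 without 2-week library 2 and -0.06 without endpoint library 2, and -0.32 without endpoint library 3, and without endpoint library 1 there were 7 genes at an unadjusted p under 0.05, against 2 to 4 when any other library of the 2 groups was left out. B cell markers were lower at the endpoint for 11 of 11 (median log2 fold change -2.08), T cell for 10 of 10 (-2.31) and muscle markers for 6 of 6 (-7.46). Erythroid markers were higher for 4 of 4 (4.67), luminal for 9 of 12 (0.92) and endothelium markers for 5 of 5 (0.60). Whether these markers had a part was not tested.

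These comparisons share samples: both untreated and both endpoint groups enter several of them, so the sign patterns are not independent of each other.

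**Figure D4:**
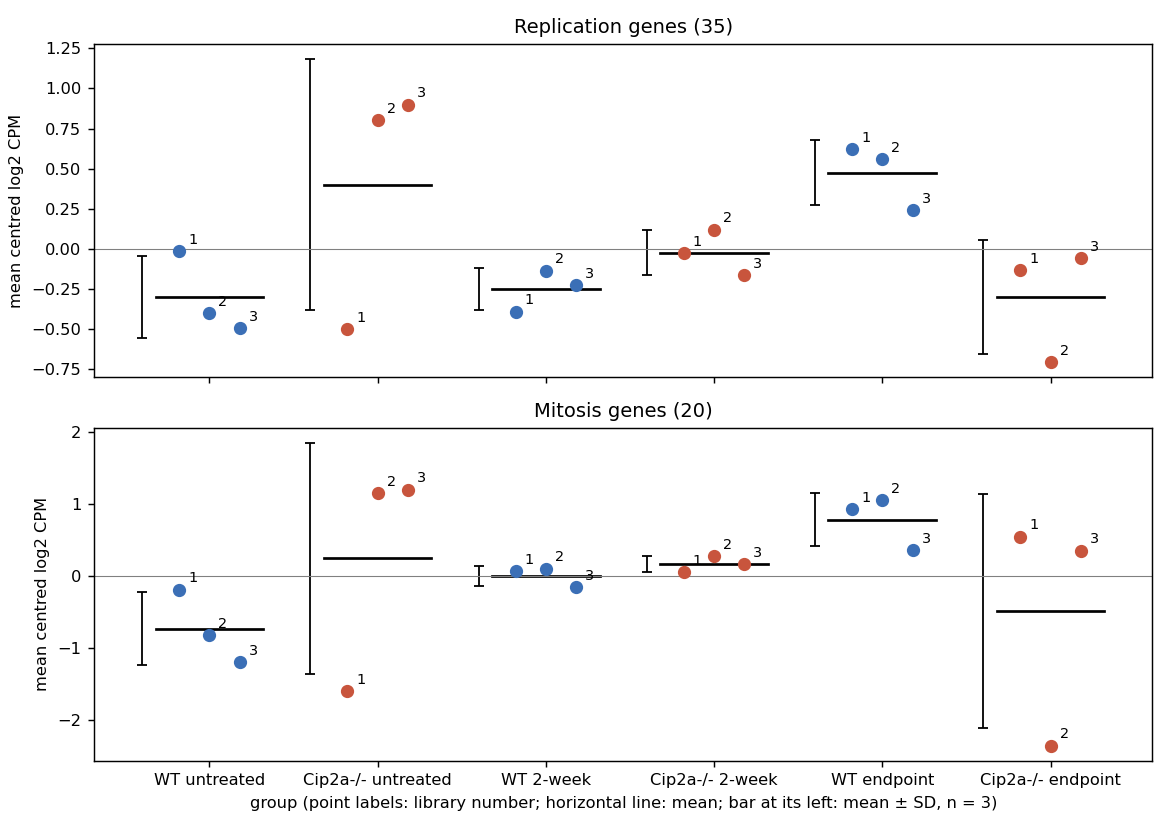
Score of the 35 replication genes (top) and of 20 mitosis genes (bottom) in each library, as the mean over genes of log2 CPM centred on each gene's mean. Points are libraries with their numbers, lines are group means and bars are SD (n = 3). Cip2a-/- untreated libraries 2 and 3 are at 0.80 and 0.90 for replication while library 1 is at -0.50, and Cip2a-/- endpoint library 2 is lowest on both scores.

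The rest of the replication programme was described with 3 further lists. Of 40 other replication and S phase genes, all tested, edgeR called 0 in each comparison. In untreated glands 13 were higher in Cip2a-/- at an unadjusted p under 0.05 (median log2 fold change 0.50), at the endpoint 11 were lower (median -0.45), and 21 had a lower interaction at the endpoint (median -0.88). Of all genes tested, 1.72%, 6.67% and 6.79% met these respective conditions. Atad2, a chromatin ATPase of S phase (1.02 ± 0.30), Wdhd1, which links helicase and polymerase alpha (1.35 ± 0.47), and Topbp1, a replication initiation and checkpoint factor (0.60 ± 0.23), had the smallest p in the untreated comparison. At the endpoint they were Cdc7, the kinase that fires origins (-1.23 ± 0.33), Gmnn, the Cdt1 inhibitor geminin (-1.39 ± 0.38), and the phosphatase gene Cdc25a (-0.60 ± 0.21). Cdc25a stood at 18.6, 19.9 and 20.4 CPM in WT endpoint glands and 12.3, 12.3 and 14.3 CPM in Cip2a-/- ones, without overlap. Lower, non-overlapping values were found for 3.02% of all genes tested.

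The 23 other E2F family, pocket protein and G1 regulators stood nearer to the background of all genes. Their median genotype difference was 0.09 in untreated glands, with 2 genes higher at an unadjusted p under 0.05, and -0.14 at the endpoint, with 3 lower, and edgeR called 0. The 20 mitosis genes, which are mostly transcribed later in the cycle, had medians of 1.37 in untreated glands (20 of 20 positive, 6 at an unadjusted p under 0.05) and -0.83 at the endpoint (20 of 20 negative, 1 at an unadjusted p under 0.05), again with 0 called by edgeR. For both lists the shares over all genes were 1.72% higher in untreated and 6.67% lower in endpoint glands. The proliferation marker Mki67 showed how the libraries spread, at 5.38, 54.2 and 81.0 CPM in untreated Cip2a-/- glands and 29.3, 1.02 and 64.5 CPM in Cip2a-/- endpoint glands, against 51.2, 43.6 and 27.9 CPM in WT endpoint glands.

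Replication and mitosis genes differed in how the 2 groups overlapped at the endpoint. WT endpoint glands had replication scores of 0.62, 0.56 and 0.24 and Cip2a-/- endpoint glands -0.13, -0.71 and -0.06, with no overlap. Mitosis scores were 0.93, 1.06 and 0.36 for WT and 0.55, -2.35 and 0.36 for Cip2a-/- glands, which overlap. At 2 weeks in WT glands, the mitosis genes had a median of 0.70 against untreated, with 19 of 20 positive and 0 at an unadjusted p under 0.05, where the replication genes had -0.01. Whether the lists themselves differ in these comparisons was not tested.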

How the data were processed

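Polyadenylated mammary gland RNA was sequenced in 18 libraries of 6 groups, with TruSeq Stranded mRNA preparation, per the labels' protocols. The table the authors deposited holds unnormalized read counts for each gene symbol. Per the submitters' processing notes, the tools were bcl2fastq 2.17, STAR 2.5.2b and Subread 1.5.1, on mm10. Which annotation and strand setting were used, and how reads with several positions were treated, is not given in the sources. Each column matched 1 library, and no pair of libraries held identical counts. Totals ranged from 16121743 to 24586404.

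The counts were fitted here by edgeR 4.0.16 (R 4.3.3) after TMM scaling, with 1 term per group over all 18 libraries. The filter was filterByExpr, at a minimum count of 10 and a minimum total of 15. Each comparison used the quasi-likelihood F-test with Benjamini-Hochberg adjustment over 15482 genes, with a threshold of 0.05 for calls. The SE is the log2 fold change divided by the root of F. Log2 CPM used a prior count of 2, and RPKM used merged exon lengths of GENCODE M21. Alternatives were DESeq2 1.42.0, voom in limma 3.58.1, RLE factors, other filters, a replicate block and subsets of libraries. The statistics were tested on simulated data.

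The 35 genes, the other lists and their roles were chosen with earlier results of these data known. The list symbols Trac, Flg and Hbb-bt were not matched. Values by library were given for the 3 genes with the smallest unadjusted p in each comparison, for the 2 highest and 2 lowest levels per length, and for Cip2a and Mki67. Of the other replication list, fold changes were given for the 3 genes with the smallest p between genotypes in untreated and in endpoint glands. Uhrf1, E2f1, Orc6 and Gins2 were described after their values were seen, as was the choice of Cdc25a for values by library.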

Additional observations from a re-analysis of the deposited data

How the results depend on the processing

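Across the alternatives, 326 recomputed numbers of called genes and medians over the 35 genes stayed close to those reported (a number within 1.5 times, a median within the spread between libraries), and 6 did not. The median for 2 weeks against untreated in WT, -0.01, changed sign: it was 0.00 with voom and -0.12 to 0.18 with single libraries left out. The 6 were numbers called, 0 in edgeR. DESeq2 called 2 for the endpoint against untreated in WT and 3 in Cip2a-/-, 6 for the endpoint against 2 weeks in WT and 2 in Cip2a-/-, and 5 for the genotype interaction at the endpoint. Leaving out single libraries gave 0 to 1 for the endpoint against 2 weeks in WT. The cause was not tested. Deviations of same-numbered libraries of different groups had a median correlation of 0.000636 over 45 pairs, with a range of -0.468 to 0.66. The 90 other pairs had a median of -0.023 and a range of -0.716 to 0.658. Correlations above 0.1 were found in 17 of the 45 and 29 of the 90 pairs. With the replicate number as a block, 0 of 35 genes were called in each comparison, and 15 rather than 18 had an unadjusted p under 0.05 between genotypes in untreated glands, with 15 at the endpoint as before. With only the compared groups in the fit, these were 6 and 11. Orc1 and Dscc1 had fewer than 10 reads in some libraries, so their values are the least precise.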
